A study of Mus musculus with 2 samples.

Results

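Expression of 10 genes of the unfolded protein response and the integrated stress response was followed in mouse hippocampus: Sdf2l1, Creld2, Herpud1, Xbp1, Atf4, Ddit3, Trib3, Nupr1, Ddit4 and Atf3. They were found by gene symbol in the platform annotation, among 16446 gene symbols on the array, and each had 1 probe. Of these, 9 (all but Atf3) were above background in every channel. RNA came from 3 kinds of mice: wild type, AtrxdE2, which carry the AtrxΔE2 allele of the X-linked chromatin remodeller gene Atrx, and AtrxdE2 mice that received TMPyP4, a cationic porphyrin ligand of G-quadruplexes. TMPyP4 was injected intraperitoneally at 30 mg/kg, 2 times a week, from postnatal day 30 to day 90. Each RNA was a pool of 5 mice, and the labels name no sex, strain or vehicle injection. Wild type was labelled with Cy5 and the mutant pool with Cy3 on both of 2 two-colour arrays, so that each array gives 1 ratio over wild type. With 1 array per mutant group and no dye swap there is no replicate error, no p-value is given, and dye and genotype cannot be told apart in a ratio over wild type. Whether both arrays carried the same wild-type pool is not stated.

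When unfolded protein accumulates in the endoplasmic reticulum (ER), the sensors IRE1 (gene Ern1), ATF6 and PERK (gene Eif2ak3) start the unfolded protein response. IRE1 splices the Xbp1 transcript into one that encodes an active transcription factor, ATF6 is cut into another, and both switch on genes for ER chaperones and for ER-associated degradation. PERK is also among the kinases that phosphorylate the initiation factor eIF2alpha, the shared step of the integrated stress response, which lowers general translation but favours translation of Atf4. ATF4 then switches on Ddit3 (the transcription factor CHOP), Atf3, Trib3, Nupr1, Ddit4 and genes of amino acid supply.

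The promoters show how members of the list differ in the letters these factors read. In RefSeq promoter windows of assembly GRCm38.p6, 250 bases before to 50 after the annotated start, all 10 genes matched 1 window each. Both strands were searched for the ER stress element ERSE, a CCAAT box and a CCACG at a fixed distance that ATF6 binds together with NF-Y, for its variant ERSE-II, for the UPRE core (TGACGTGG), for the ATF4 and C/EBP composite site CARE (TGATGNAA) and for the cyclic AMP response element CRE (TGACGTCA). Of all 32851 promoter windows, 0.119% held ERSE, 0.0365% ERSE-II, 0.676% the UPRE core, 3.97% CARE and 1.79% CRE. Creld2 held ERSE, Herpud1 held both ERSE-II and CARE, and Nupr1, Atf3 and Trib3 held CARE. Sdf2l1, Xbp1, Atf4, Ddit3 and Ddit4 held none of these letters in the window, and no member held the UPRE core or CRE. The 150 bases before the start are shown for the members that held a motif there and, as the textbook ERSE promoter, for Hspa5, which encodes the ER chaperone BiP. Capitals mark the motif, and a motif on the opposite strand appears as its reverse complement.
Hspa5: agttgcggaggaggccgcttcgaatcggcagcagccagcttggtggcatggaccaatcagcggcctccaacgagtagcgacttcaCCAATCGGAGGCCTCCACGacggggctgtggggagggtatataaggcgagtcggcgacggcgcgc
Creld2: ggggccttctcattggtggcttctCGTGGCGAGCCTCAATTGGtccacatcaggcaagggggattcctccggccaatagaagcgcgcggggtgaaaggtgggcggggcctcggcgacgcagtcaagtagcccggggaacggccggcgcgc
Herpud1: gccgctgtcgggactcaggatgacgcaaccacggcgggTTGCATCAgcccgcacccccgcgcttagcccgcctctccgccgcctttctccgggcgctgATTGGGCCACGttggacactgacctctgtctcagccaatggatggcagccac
Nupr1: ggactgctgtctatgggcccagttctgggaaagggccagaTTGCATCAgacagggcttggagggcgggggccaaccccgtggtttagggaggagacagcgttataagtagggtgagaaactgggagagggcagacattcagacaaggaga
Atf3: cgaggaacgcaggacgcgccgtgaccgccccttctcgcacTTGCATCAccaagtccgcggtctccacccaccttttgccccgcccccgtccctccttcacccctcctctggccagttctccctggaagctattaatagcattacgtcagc

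These stretches lie at chr2:34771940-34772089 (Hspa5), chr15:88819496-88819645 (Creld2) and chr8:94386279-94386428 (Herpud1) on the plus strand, and at chr7:126625471-126625620 (Nupr1) and chr1:191183334-191183483 (Atf3) on the minus strand. The CARE match of Nupr1 and that of Atf3 both began 110 bases before the start and had the same letters, TTGCATCA, as did that of Herpud1, which began 112 bases before the start. The ERSE-II match of Herpud1 began 52 bases and the ERSE match of Creld2 126 bases before the start. In Trib3 the match, TTACATCA, lay after the start and its surroundings are not shown.

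The arrays differed in brightness, with median signals above the blank spots of 42.2 in wild type and 64.6 in AtrxdE2, then 36.01 in wild type and 79.03 in AtrxdE2+TMPyP4. Of the named genes, 13630 were above background in all 4 channels. Atrx had a log2 ratio over wild type of -0.68 in AtrxdE2 and -0.36 in AtrxdE2+TMPyP4. The authors' own ratios for it were -1.96 and -0.78. The position of its probe relative to the deleted part was not analysed here. Below, a signal is the intensity above the blank spots before normalization, which is not comparable between dyes, and a level is the log2 intensity after background correction, loess and scaling between arrays. A log2 ratio beyond 0.32 in either direction served as the size threshold. As a yardstick of spread, each ratio is given with the SD of the ratios of the 500 genes nearest in signal.

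**Figure D1:**
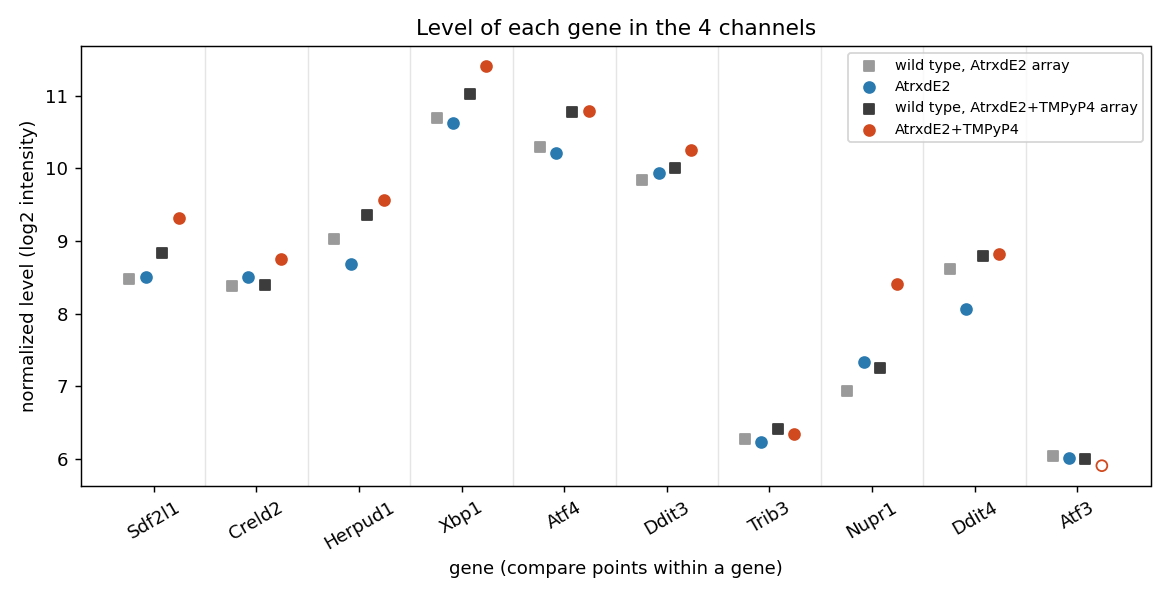
Normalized level (log2 intensity, vertical axis) of each of the 10 genes in the 4 channels, with squares for wild type and circles for the mutant pools; the open circle of Atf3 was not above background. The AtrxdE2+TMPyP4 circle is the highest of the 4 points for 8 genes, while levels of different genes cannot be set against each other. For Ddit4 (8.82 against 8.80 in the second wild type) and Atf4 (10.79 against 10.77) the lead is small. The second wild type is the higher one for all 9 measured genes, so a place above both wild-type points only restates a ratio above 0. Of all genes 36.7% were above both, with either order of wild-type levels.

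Among the 3 genes of ER folding and degradation, Sdf2l1 and Creld2 were past the size threshold in the treated pool, both higher than wild type, and Herpud1 was not. Sdf2l1, which encodes an ER-resident partner of the chaperone machinery, had signals of 234 in wild type and 375 in AtrxdE2 on the first array, and of 271 in wild type and 887 in AtrxdE2+TMPyP4 on the second. Its levels were 8.48 in wild type, 8.51 in AtrxdE2, 8.84 in the wild type of the second array and 9.32 in AtrxdE2+TMPyP4. The treated pool therefore stood above both wild-type levels, and AtrxdE2 stood between them. The log2 ratio over wild type was 0.03 in AtrxdE2 (SD of genes near in signal 0.23) and 0.48 in AtrxdE2+TMPyP4 (SD 0.20), a 1.39-fold higher value in the treated pool.

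Creld2 encodes a secreted and ER-resident protein with a protein disulphide isomerase activity that is induced by ER stress. Its signals were 215 in wild type and 374 in AtrxdE2, then 187 in wild type and 560 in AtrxdE2+TMPyP4. Levels were 8.38 and 8.39 in the wild-type channels, 8.51 in AtrxdE2 and 8.75 in AtrxdE2+TMPyP4. Creld2 was the member whose wild-type levels lay closest together, and both mutant pools stood above them. The log2 ratios were 0.13 (SD 0.23) and 0.36 (SD 0.22).

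Herpud1 encodes a ubiquitin-like membrane protein that organizes the ER-associated degradation complex. Its signals were 362 in wild type and 429 in AtrxdE2, then 405 in wild type and 1081 in AtrxdE2+TMPyP4. Levels were 9.03 and 9.36 in wild type, 8.68 in AtrxdE2 and 9.57 in AtrxdE2+TMPyP4, so AtrxdE2 lay below both wild-type levels and the treated pool above both. The log2 ratio was -0.35 in AtrxdE2 (SD 0.22) and 0.21 in the treated pool (SD 0.23). With the local background in place of the blank spots the ratio in AtrxdE2 was -0.076, and with median centring in place of loess it was -0.16.

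The transcription factor genes divided. Xbp1 had signals of 1251 in wild type and 1852 in AtrxdE2, then 1363 in wild type and 4201 in AtrxdE2+TMPyP4. Its levels were 10.69 and 11.02 in wild type, 10.63 in AtrxdE2 and 11.41 in AtrxdE2+TMPyP4, which put the treated pool above both wild-type levels and AtrxdE2 just below both. The log2 ratio was -0.065 in AtrxdE2 (SD 0.25) and 0.39 in AtrxdE2+TMPyP4 (SD 0.23). The probe's place relative to the segment that IRE1 removes was not analysed, so spliced and unspliced Xbp1 are not separated here.

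Atf4, the central factor of the integrated stress response, had ratios close to 0 on both arrays. Its signals were 938 in wild type and 1381 in AtrxdE2, then 1127 in wild type and 2658 in AtrxdE2+TMPyP4. The log2 ratio was -0.08 in AtrxdE2 (SD 0.24) and 0.02 in the treated pool (SD 0.22). Levels were 10.29 and 10.77 in wild type, 10.21 in AtrxdE2 and 10.79 in AtrxdE2+TMPyP4. The wild-type levels of Atf4 thus differed between the arrays by 0.48, nearly as much as the mutant pools did, at 0.58. The arrays measure RNA, not the translation of Atf4.

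Ddit3, which encodes the factor CHOP of prolonged ER stress, had signals of 674 in wild type and 1122 in AtrxdE2, then 646 in wild type and 1791 in AtrxdE2+TMPyP4. Levels were 9.84 in wild type, 9.93 in AtrxdE2 and 10.25 in AtrxdE2+TMPyP4, and the wild type of the second array was 0.16 above that of the first, with the treated pool above both wild-type levels and AtrxdE2 between them. The log2 ratios were 0.082 (SD 0.24) and 0.25 (SD 0.38), smaller than the spread of genes near in signal.

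Atf3, a factor induced by stress and by neuronal activity, was near background. On the first array its signals were 7.63 in wild type and 11.3 in AtrxdE2, both above background, with a log2 ratio of -0.031. On the second array wild type had 3.74 and AtrxdE2+TMPyP4 had 4.35, of which only wild type was above background. Taken without measurement error, the bound this allows there is at least 1.04-fold higher in wild type. It was set by the lowest level (5.94) that a probe above background had in the treated channel. On the log2 scale this bound is about the size of the SD of genes near in signal on that array, 0.059. Whether wild type was higher therefore cannot be told. Atf3 enters none of the counts below.

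Genes of feedback and growth control included the largest values of the list. Nupr1 encodes a small nuclear protein that is induced by many cell stresses. Its signals were 50.8 in wild type and 123 in AtrxdE2, then 61.1 in wild type and 413 in AtrxdE2+TMPyP4. Levels were 6.94 and 7.25 in wild type, 7.33 in AtrxdE2 and 8.41 in AtrxdE2+TMPyP4, so both mutant pools lay above both wild-type levels, AtrxdE2 only just. The log2 ratio was 0.39 in AtrxdE2 (SD 0.21) and 1.17 in AtrxdE2+TMPyP4 (SD 0.22), a 2.25-fold higher value that ranked 16th from the top of 13630 genes. In the authors' value table the ratios were 0.62 and 1.58. With the local background the ratio in AtrxdE2 was 0.13, short of the size threshold, and in the treated pool it was 0.91.

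Ddit4 encodes REDD1, an inhibitor of the growth kinase complex mTORC1, and is also a target of glucocorticoids. Its signals were 263 in wild type and 255 in AtrxdE2, then 267 in wild type and 607 in AtrxdE2+TMPyP4. Levels were 8.62 and 8.80 in wild type, 8.06 in AtrxdE2 and 8.82 in AtrxdE2+TMPyP4. AtrxdE2 was the low point, below both wild-type levels, and the treated pool stood next to the higher of them. The log2 ratio was -0.56 in AtrxdE2 (SD 0.23), 1.47-fold lower than wild type and 104th from the bottom of 13630 genes, and 0.019 in the treated pool (SD 0.21). The second value depended on the background, and was 0.58 with the local background.

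Trib3, a pseudokinase gene that ATF4 and CHOP induce, was dim. It had signals of 16.8 in wild type and 24.1 in AtrxdE2, then 19.0 in wild type and 34.5 in AtrxdE2+TMPyP4. Its log2 ratios were -0.036 (SD 0.12) and -0.078 (SD 0.11). In the authors' value table they were -0.13 and -0.31. The levels lay between 6.24 in AtrxdE2 and 6.42 in the wild type of the second array. Trib3 was the only measured member with a ratio below 0 on both arrays.

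**Figure D2:**
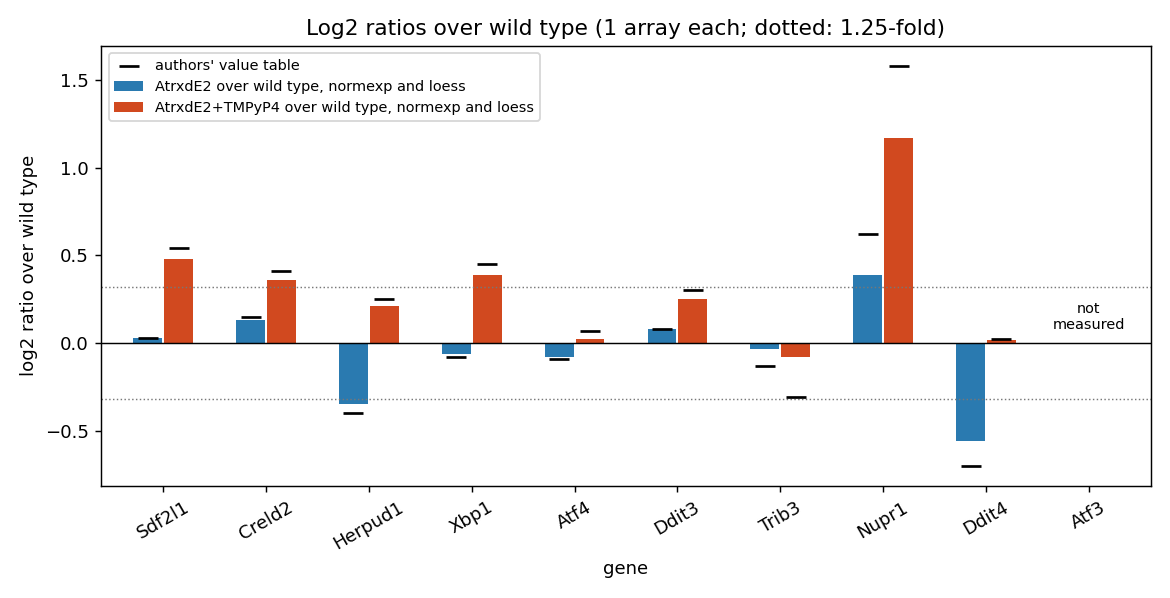
Log2 ratio over wild type (vertical axis) of each gene in AtrxdE2 (blue) and AtrxdE2+TMPyP4 (red), 1 array each, with dashes for the authors' value table and dotted lines at the size threshold. Nupr1 has the highest red bar at 1.17, Ddit4 the lowest blue bar at -0.56, and Herpud1 lies on opposite sides of 0.

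Over the 9 measured members the median log2 ratio of AtrxdE2 over wild type was -0.036 (SD over members 0.27), against -0.0029 for all 13630 measured genes. Past the size threshold 1 member, Nupr1, was higher, where 4.5% of all genes were, and 2 members, Herpud1 and Ddit4, were lower, where 5.05% of all genes were. The AtrxdE2 level lay below both wild-type levels for 5 members (Herpud1, Ddit4, Atf4, Xbp1 and Trib3). The first array had the lower wild-type level for all 9, so these are simply the members with a ratio below 0. The AtrxdE2 level lay above both for Nupr1 and Creld2. Among all genes, with either order of wild-type levels, 36% were below both and 34.4% above both. The members therefore showed no common direction in AtrxdE2. With the local background only Ddit4 was past the threshold, where 13.5% of all genes were in either direction, and with median centring Nupr1 and Ddit4 were, 1 in each direction, where 16% of all genes were. The share here was 9.55%.

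In AtrxdE2+TMPyP4 over wild type the median of the members was 0.25 (SD 0.37), against 0.0095 for all measured genes, and 8 of 9 members were above 0, against 52.8% of all genes. Sdf2l1, Creld2, Xbp1 and Nupr1 were past the threshold on the higher side, where 5.83% of all genes were, and no member was on the lower side, where 3.14% were. With plain subtraction of the background, and likewise in the authors' value table, 4 members were again past the threshold, but there 26.9% and 27.2% of all genes passed it in either direction, against 8.97% here. Nupr1 alone was past 2-fold, with 0.161% of all genes on that side. The treated level was above both wild-type levels for 8 members, all but Trib3. For all 9 measured members the second array had the higher wild-type level, so this count only restates the ratios above 0. The treated level was below both for none. Among all genes 36.7% were above both and 29.8% below both. Only 51.7% of all genes had the higher wild-type level on the second array, so these shares are no like baseline. With median centring, which left genes of like signal at medians of up to 0.47, the median of the members was 0.63, and 8 were higher and 1, Trib3, lower past the threshold, against 4 and 0 with loess. Under median centring 40.9% of all genes passed it in either direction. With the local background 6 members were higher past it and none lower, where 17.9% of all genes passed in either direction.

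Set against each other as the difference of both log2 ratios, AtrxdE2+TMPyP4 stood above AtrxdE2 by a median of 0.45 over the members (SD 0.26), against 0.015 for all measured genes. The difference was 0.77 for Nupr1, 0.58 for Ddit4, 0.56 for Herpud1, 0.46 for Xbp1 and 0.45 for Sdf2l1, all past the threshold on the higher side, where 10.3% of all genes were. It was 0.23 for Creld2, 0.17 for Ddit3, 0.10 for Atf4 and -0.042 for Trib3. No member was past the threshold on the lower side, where 6.54% of all genes were. The spread of this difference among genes near in signal was wider than that of a single ratio, with an SD of 0.28 for Nupr1, 0.29 for Ddit4, Xbp1 and Sdf2l1, and 0.30 for Herpud1. In the authors' value table the 5 leading differences were 0.96, 0.72, 0.65, 0.53 and 0.51, in the same order of genes, and 40.9% of all genes passed the threshold there in either direction, against 16.9% here.

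The routes to these differences were unlike. For Ddit4 the difference came from a low AtrxdE2 value with a treated value near wild type. For Sdf2l1 and Xbp1 AtrxdE2 was near wild type and the treated pool higher. Herpud1 combined a lower AtrxdE2 value with a higher treated value. For Nupr1 both mutant pools were higher, the treated pool more so. These routes depended on the processing. With the local background the treated Ddit4 ratio was 0.58, and in AtrxdE2 Herpud1 had -0.076, Xbp1 0.075 and Nupr1 0.13. The members with a CARE match included the highest difference, Nupr1 at 0.77, and the lowest, Trib3 at -0.042.

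The wild-type channels, which should hold the same kind of RNA, were themselves higher on the second array for all 9 measured members, with a median difference of 0.31 (SD 0.14), against 0.0077 for all genes. They differed by 0.48 for Atf4, 0.36 for Sdf2l1, 0.34 for Herpud1 and 0.33 for Xbp1, all past the threshold on the higher side, where 9.74% of all genes were. The values for the others were 0.31 for Nupr1, 0.19 for Ddit4, 0.16 for Ddit3, 0.14 for Trib3 and 0.0099 for Creld2. Between the mutant pools the levels differed by 1.08 for Nupr1, 0.90 for Herpud1, 0.81 for Sdf2l1, 0.79 for Xbp1 and 0.77 for Ddit4. The difference of the ratios is what remains after the wild-type difference is taken off, and for Sdf2l1 and Xbp1 that wild-type difference was not far below it. The mutant levels were normalized together with the wild-type channels. Without those, the Cy3 channels compared directly differed by 1.12, 0.91, 0.82, 0.80 and 0.78, in the same order of genes. What the wild-type difference between arrays stands for was not tested.

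**Figure D3:**
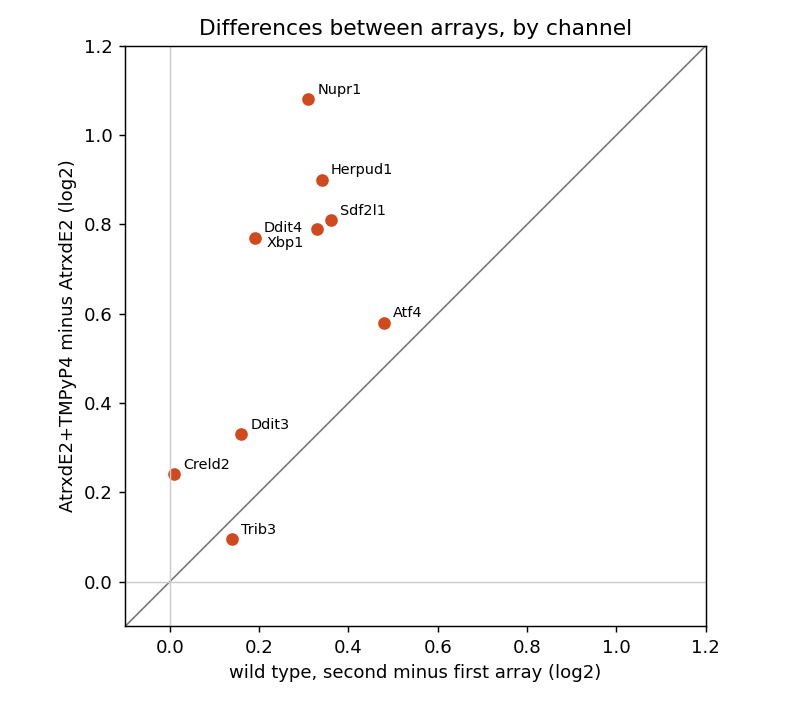
Difference between the arrays (log2) in the mutant pools (vertical axis, AtrxdE2+TMPyP4 minus AtrxdE2) against that in the wild-type channels (horizontal axis, second minus first array), 1 point per measured gene, with the line of equality. All 9 genes lie to the right of 0, and all but Trib3 lie above the line; the height above it is the difference of the ratios.

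The wider pathway was read with and without the 10 genes. Without them, 102 measured genes had a median ratio of 0.024 in AtrxdE2 and 0.0077 in AtrxdE2+TMPyP4, and a median difference of 0.022. Past the threshold, 2 were higher and 5 lower in AtrxdE2, where 4.5% and 5.05% of all genes were. In the treated pool 13 were higher and 3 lower, where 5.83% and 3.14% of all genes were. For the difference 11 were higher and 5 lower, where 10.3% and 6.54% of all genes were. The lists by role that follow include the members that belong to them. The 10 genes are not a sample of the pathway: they and the lists by role were chosen with earlier results of these arrays known.

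Among the sensors, Ern1 was not measured. Atf6 had 0.0023 in AtrxdE2 and 0.40 in AtrxdE2+TMPyP4, with a wild-type difference between arrays of 0.48. Eif2ak3 had 0.16 and 0.067, and Eif2ak4, which encodes the amino acid sensor GCN2, had 0.20 and 0.13. Crebl1 (now Atf6b), a relative of Atf6, had 0.041 and 0.089. The gene of site-1 protease, Mbtps1, which makes the first cut in ATF6, was lower in the treated pool, at -0.21, against 0.14 in AtrxdE2. The list of sensors and their transcription factors, Xbp1 included, had 11 measured genes. Of these, 2 (Atf6 and Xbp1) were past the threshold in the treated pool, both higher, where 5.83% of all genes were.

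ER chaperones and folding enzymes were the role with the most genes past the fold in the treated pool. Of 26 measured genes 9 were higher past the threshold and none lower, where 5.83% and 3.14% of all genes were, with a median of 0.15 (SD over genes 0.22), and in AtrxdE2 1 was higher, with a median of 0.043. Sdf2l1 led, followed by the disulphide isomerase gene Pdia3 and the co-chaperone gene Dnajb9, both at 0.43. In the wild-type channels Pdia3 was lower on the second array, by -0.44 on the log2 scale, and so was Dnajb9, by -0.86. Hspa5 had signals of 4400 in wild type and 7367 in AtrxdE2, then 4526 in wild type and 13457 in AtrxdE2+TMPyP4, and log2 ratios of 0.16 and 0.33. Hsp90b1, which encodes the ER chaperone GRP94, had 0.12 and 0.062. The lowest in the treated pool were the calnexin gene Canx at -0.19, Pdia6 at -0.14 and P4hb at -0.14. Sdf2l1 and Creld2 are members of this list too. Because the list was chosen with earlier results of these arrays known, its counts beside the shares of all genes are no test. They were made with normexp and loess only, and Hspa5 was barely past the threshold. For the difference between the pools the median of the list was 0.19. There 3 of the 26 were higher past the threshold and none lower, where 10.3% and 6.54% of all genes were. The 1 gene past it in AtrxdE2, where 4.5% of all genes were, was Dnajc10, at 0.55 there and 0.42 in the treated pool.

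Degradation and translocation genes had a median of -0.0037 (SD 0.16) in the treated pool. Past the threshold 1 of 26 was higher, the translocation factor gene Sec63 at 0.38, where 5.83% of all genes were. In AtrxdE2 4 of these 26 were lower past the threshold, where 5.05% of all genes were, and the median was -0.013. They were Herpud1, Derl1 at -0.48, Sel1h (now Sel1l) at -0.40 and the translocon-associated gene Ssr2 at -0.38. The difference between the pools was 0.62 for Ssr2 and 0.41 for Derl1 on the higher side, and -0.39 for the ubiquitin ligase gene Syvn1 and -0.36 for Wfs1 on the lower side. Derl1 and Sel1h were like Herpud1 in that AtrxdE2 was below wild type, but their treated values, -0.076 and -0.055, were not above it. Ssr2 was like Herpud1 in both pools, with a treated value of 0.24.

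Genes downstream of ATF4 gave no common direction. Of 18 measured transcription factor and feedback genes, 3 were higher past the threshold in the treated pool, Nupr1, Jundm2 (now Jdp2) at 0.47 and the glutathione-degrading enzyme gene Chac1 at 0.33, and Ndrg1 was lower at -0.34. Their median was 0.016 (SD 0.34). Of 24 measured genes of amino acid supply and tRNA charging, 2 were higher and 2 lower, with Yars at 0.42 and the amino acid transporter gene Slc38a2 at 0.33 on one side and Slc3a2 at -0.49 and the serine synthesis gene Psat1 at -0.33 on the other. Their median was -0.033 (SD 0.20). Beside the counts of both lists, 5.83% of all genes were higher and 3.14% lower past the threshold in the treated pool. The 9 measured genes of eIF2alpha, its kinases, its phosphatase subunits and regulators of these had a median of 0.067 (SD 0.15) in the treated pool. The PERK inhibitor gene Dnajc3 was highest there at 0.36. In AtrxdE2 their median was 0.063, and 1 was higher past the threshold, where 4.5% of all genes were. It was Impact, at 0.56, against 0.19 in the treated pool.

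**Figure D4:**
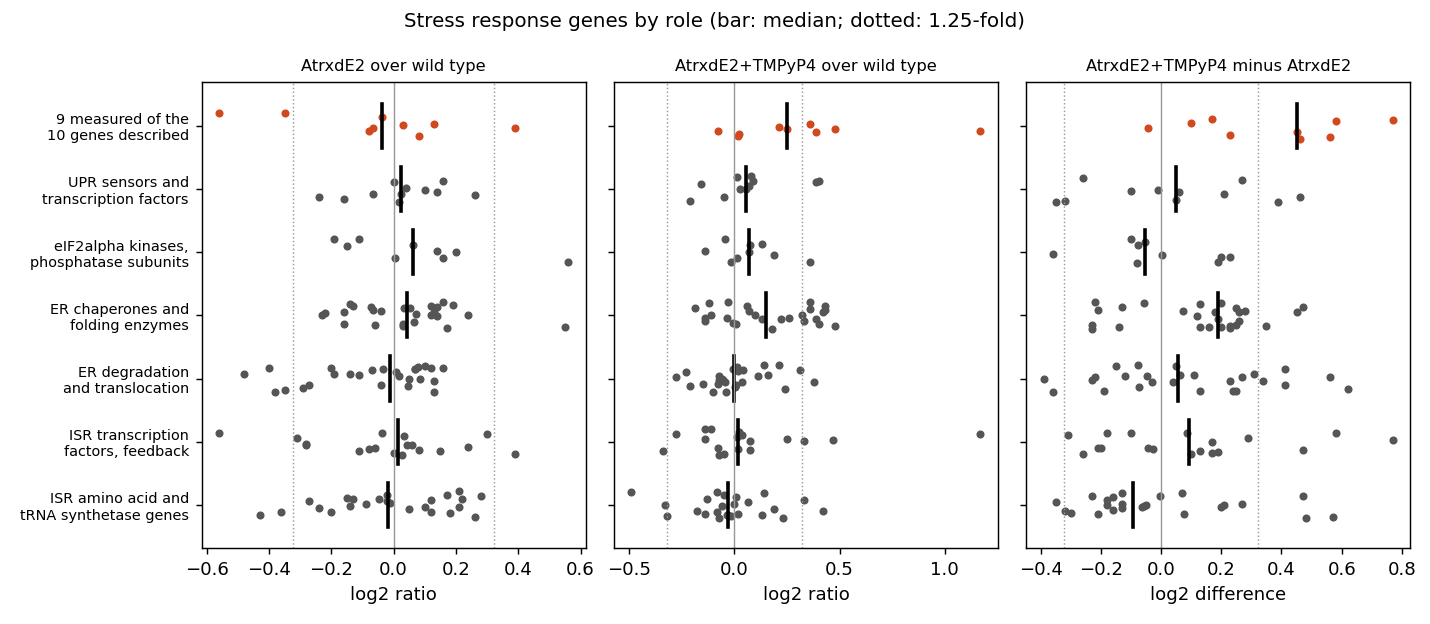
Log2 ratios over wild type in both mutant pools and their difference (horizontal axes) for the 9 measured genes described here (red) and for the pathway by role (grey, members included), 1 point per measured gene, with bars at the medians and dotted lines at the size threshold. In AtrxdE2+TMPyP4 over wild type the bar of the ER chaperones stands at 0.15 and that of the degradation genes at -0.0037.

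Markers of some other cell types also differed on these arrays, and those of others had medians nearer to 0. The choroid plexus is a secretory epithelium, and 12 of its 13 measured genes were higher past the threshold in the treated pool, with a median of 1.38 (SD 1.62), from Ace at -0.00044 to Ttr at 6.59. In AtrxdE2 2 of the 13 were higher, with a median of 0.073. Of all genes 5.83% were higher past the threshold in the treated pool and 4.5% in AtrxdE2. The other 3 choroid plexus genes on the array, Cldn2, F5 and Aqp1, were not above background in every channel. Ttr had signals of 44.3 in wild type and 353 in AtrxdE2, then 219 in wild type and 60791 in AtrxdE2+TMPyP4. Its wild-type level was higher on the second array as well, by 1.78. Summed over the 13 genes, the signal was 3257 in wild type and 5725 in AtrxdE2, then 2756 in wild type and 76241 in AtrxdE2+TMPyP4, and without Ttr it was 3212, 5372, 2537 and 15450 in the same order. Meningeal and fibroblast genes had medians of 0.39 in AtrxdE2 and 0.65 in the treated pool, with 9 and 10 of 17 higher past the threshold, and summed signals of 2315 in wild type and 5403 in AtrxdE2, then 1914 and 6686. All 14 measured oligodendrocyte genes were below 0 in AtrxdE2, with a median of -0.49, and 13 of 14 in the treated pool, with a median of -0.29. Of all genes 49.3% were above 0 in AtrxdE2 and 52.8% in the treated pool. The summed signals below are those of the 14 oligodendrocyte genes. They were 20076 in wild type and 20100 in AtrxdE2, then 17711 and 28110. Hippocampal neuron genes had medians of -0.033 in AtrxdE2 and -0.064 in the treated pool, and astrocyte genes 0.0036 and 0.11. Microglia genes had -0.061 and -0.11, and endothelium genes 0.012 and 0.057. Single genes of these lists differed more, such as Snap25 at -0.67 and 0.59 and Glul at -0.15 and -0.93. In bulk tissue fewer cells of a type and less RNA per cell cannot be told apart. The part of these cell types in the values of Sdf2l1, Creld2, Herpud1, Xbp1 and Nupr1 was not tested.

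Neighbouring responses were set beside the members. Beside Ddit4, 11 measured glucocorticoid-responsive genes had medians of -0.015 in AtrxdE2 and -0.11 in the treated pool. The 3 lowest of them in AtrxdE2 were Sgk (now Sgk1), Mt2 and Fkbp5, at -0.63, -0.50 and -0.44, and their treated values were -0.25, -0.69 and 0.38. These 3 were lower past the threshold in AtrxdE2, where 5.05% of all genes were, and none was higher. The highest there were Cdkn1a at 0.29, Dusp1 at 0.14 and Pdk4 at 0.11. In all, 7 of the 11 were below 0 in AtrxdE2 and 4 above. Of 13 immediate early genes, the class that shares Atf3, 10 were below 0 in AtrxdE2 and 12 in the treated pool, with medians of -0.18 and -0.23. Of all genes 49.3% were above 0 in AtrxdE2 and 52.8% in the treated pool. Past the threshold in AtrxdE2, 2 of the 13 were higher, Btg2 at 0.42 and Jun at 0.33, and 4 lower. There 4.5% and 5.05% of all genes were. In the treated pool none was higher and 5 were lower. Of 8 measured heat shock genes of the cytosol and mitochondria, 1, Hspb1 at 0.38, was higher past the threshold in the treated pool and none lower, with a median of -0.12. In the treated pool 5.83% of all genes were higher and 3.14% lower past it. In AtrxdE2 2 of the heat shock genes were lower, Cryab at -0.95 and Hspa8 at -0.86, where 5.05% of all genes were.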

How the data were processed

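Hippocampal RNA pools were hybridised to 2 two-colour arrays. Spot and local background medians in each channel, which the authors deposited as linear intensity merged from 3 scanner gains per the file headers, were the starting values. The authors also deposited their own normalized log2 ratios, mutant over wild type per the labels, without the software or steps behind them. Of 23473 probes, 16631 have 1 gene symbol in the platform annotation, none has several and 6842 are unnamed here.

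Background was corrected by normexp (limma 3.58.1, R 4.3.3, offset 50) against the trimmed mean of the 2736 blank spots (a share of 0.05 left out at each end), followed by loess within each array with control spots at weight 0. Levels were scaled between arrays by Aquantile. Genes above the blank mean plus 2 SD in all 4 channels were counted as measured, and probes of a gene were averaged. Tested on simulated data, ratios so processed came out smaller than simulated, less so for bright probes. Of the pathway lists, names were taken from the 3 highest and 3 lowest genes of each comparison and from a fixed set of sensors and chaperones. Members and lists were chosen with earlier results of these data known. Where the annotation has an older symbol, the current one in the RefSeq gene table is given beside it. Alternatives were local background, plain subtraction, a smaller offset, a stricter filter and none, median centring, the authors' ratios and the Cy3 channels directly.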

Additional observations from a re-analysis of the deposited data

Results flagged for a closer look

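Herpud1, Ddit4 and Xbp1 had log2 ratios over wild type of opposite sign in the 2 mutant pools, below 0 in AtrxdE2 and above 0 in AtrxdE2+TMPyP4, and differed between the pools by more than the size threshold of 0.32. The difference was 0.56 for Herpud1, 0.58 for Ddit4 and 0.46 for Xbp1. With 1 array per group the difference was not tested. The ratio nearest to 0 was 0.019 for Ddit4 in AtrxdE2+TMPyP4 and -0.065 for Xbp1 in AtrxdE2. The signs of both depended on the processing. That of Ddit4 was -0.0007 with plain subtraction and 0.58 with the local background. That of Xbp1 was 0.075 with the local background and 0.15 with median centring. For Herpud1 the ratios were -0.35 and 0.21, of which the second was short of the threshold, and the first was -0.076 with the local background and -0.16 with median centring.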

How the results depend on the processing

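With the local background, members past the threshold in AtrxdE2 over wild type numbered 1 in place of 3 (13.5% of all genes in place of 9.55%). In AtrxdE2+TMPyP4 over wild type they numbered 6 in place of 4 (17.9% of all genes in place of 8.97%). The median member ratio there was 0.38 in place of 0.25. With median centring, the median member ratio of AtrxdE2+TMPyP4 over wild type was 0.63 in place of 0.25 with 9 members past the threshold in place of 4 (40.9% of all genes in place of 8.97%), and the difference between the pools had 8 members past it in place of 5 (29% of all genes in place of 16.9%). Read against the 500 genes nearest in signal, an alternative added after seeing the data, median centring gave a median of 0.25 with 4 members past the threshold. It takes off the trend with signal, as loess does, so its likeness to the loess values is no separate check. No share of all genes was computed for it. Without Nupr1, also added, 2, 3 and 4 members passed in the 3 comparisons. Of the member values under alternatives, 231 moved by less than the SD of the wild-type difference between arrays among genes near in signal and 18 by more, and no value past the threshold changed sign. The 231 include values that could not move: 27 under the stricter filter, 27 without a filter and 24 without Nupr1. A further 27 of them are from median centring read against genes near in signal, where little movement was possible. That SD was 0.35 for Herpud1 and 0.32 for Nupr1, so a value could cross the threshold and still be counted as moving by less. With the Cy3 channels compared directly, 5 values moved by more and 4 by less. Compared directly, the Cy3 channels gave a median member difference of 0.78. The 1 array per group limits every value, and Trib3 and Atf3 are limited by signal over background. No paired analysis was possible because each group has 1 array.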
